A study of Mus musculus with 12 samples.

Results

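Expression of 10 transcription factor genes was followed in mouse hearts after cisplatin (CDDP), the platinum drug: Fos, Fosb, Fosl1, Fosl2, Jun, Junb, Jund, Egr1, Atf3 and Nr4a1. They were chosen by gene symbol, as 10 of the 55885 genes in the table, and all 10 were found. Cardiac tissues of 12 male C57BL/6 mice (C57BL/6J in the methods) had been sequenced, 3 in each of 4 groups. The Saline group was wild type without cisplatin, and the CDDP group was wild type with cisplatin at 6 mg/kg, injected intraperitoneally on days 1, 8 and 15. The STING-/- and STING-/-+CDDP groups carried Tmem173-/-, the loss of the gene now named Sting1, without and with the same cisplatin course. Mice were 8 weeks old and hearts were taken on day 22, in the week after the last dose. In the labels, mice without cisplatin are untreated, whereas the methods describe saline. Each heart came from 1 of the 6 mice in its group. The labels name no promoter or cell type that limits the loss of STING, and no region of the heart. The study asked whether a route from STING through TNF-α to AP-1 takes part in cardiac injury by cisplatin.

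AP-1 is a dimer of basic leucine zipper proteins. Jun proteins (Jun, Junb, Jund) can pair among themselves or with Fos proteins (Fos, Fosb, Fosl1, Fosl2), while Fos proteins need a Jun partner to bind DNA. Most of these genes, with the zinc finger factor Egr1, the nuclear receptor Nr4a1 and the stress-induced ATF family member Atf3, are immediate-early genes: they are transcribed from factors already present in the cell soon after growth factors, cytokines, calcium or stress act on it, and their short-lived transcripts fall again once the stimulus ends. Jund is the subunit usually present in resting tissue. Activity of AP-1 also depends on phosphorylation of Jun and Fos, which a transcript level does not show.

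The stretch upstream of the start is shown for Fos, Junb and Nr4a1, which were higher with CDDP, and for Jun, the classical partner of Fos, which did not pass the test. Promoter sequences from RefSeq (GRCm38.p6) were used for 8 of the 10 genes. No entry was found for Fosl1, and Egr1 was left out. Each run is the 250 bases that end at the base before the annotated start, 5′ to 3′ on the strand of the gene. Capitals mark TGACG, the core of the cyclic AMP response element, read on either strand (CGTCA in the printed run where it lies on the opposite strand), and in Jun the TGACATCA element. These motifs were chosen after the sequences had been seen. The Fos run lies at chr12:85473640-85473889 on the plus strand, the Junb run at chr8:84978749-84978998 on the minus strand and the Nr4a1 run at chr15:101266596-101266845 on the plus strand, within an intron of a longer Nr4a1 transcript. The Jun run lies at chr4:95052223-95052472 on the minus strand, inside the antisense gene Junos.
Fos: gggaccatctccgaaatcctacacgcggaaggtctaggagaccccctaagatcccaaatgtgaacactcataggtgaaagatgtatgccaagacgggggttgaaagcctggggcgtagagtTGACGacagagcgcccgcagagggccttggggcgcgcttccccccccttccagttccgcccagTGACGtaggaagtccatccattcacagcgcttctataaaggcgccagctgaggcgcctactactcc
Junb: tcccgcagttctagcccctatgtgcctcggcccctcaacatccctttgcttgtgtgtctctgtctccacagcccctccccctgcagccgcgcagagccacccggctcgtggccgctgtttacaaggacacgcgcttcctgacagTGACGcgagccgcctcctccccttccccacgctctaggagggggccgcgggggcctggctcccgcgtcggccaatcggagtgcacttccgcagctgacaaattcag
Nr4a1: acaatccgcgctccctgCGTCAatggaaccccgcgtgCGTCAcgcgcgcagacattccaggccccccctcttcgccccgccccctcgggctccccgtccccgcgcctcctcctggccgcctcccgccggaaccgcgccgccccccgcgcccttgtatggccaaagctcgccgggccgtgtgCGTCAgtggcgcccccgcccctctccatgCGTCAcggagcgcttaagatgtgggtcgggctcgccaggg
Jun: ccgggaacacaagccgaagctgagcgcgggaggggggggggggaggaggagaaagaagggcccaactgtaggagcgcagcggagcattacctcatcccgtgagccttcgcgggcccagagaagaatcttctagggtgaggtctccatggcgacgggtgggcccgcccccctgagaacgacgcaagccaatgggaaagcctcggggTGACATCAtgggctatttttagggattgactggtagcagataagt

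Within these windows Nr4a1 held 4 copies of TGACG, Fos held 2, and Fosb, Junb and Atf3 held 1 each. The copies nearest the start began 40 bases upstream of it in Nr4a1, 66 in Fos and 106 in Junb. TGACG was present in the same window of 17.9% of 27025 promoters, so 5 of 8 is given as a description. The windows follow RefSeq starts, which differ from GENCODE M21 for some genes. The Jund window ended at 70697738, before the gene start there at 70698949. Those of Fosb, Fosl2 and Atf3 overlapped exons of their own genes. The Jun window held TGACATCA 45 bases upstream, a sequence found in 3.02% of promoters. The full element TGACGTCA, which contains TGACG on both strands (1.62% of promoters), the AP-1 site TGACTCA (4.43%) and the CArG box bound by serum response factor (1.4%) had no match in the 8 windows. Sequence farther upstream than these windows was not searched, nor was that of Egr1 and Fosl1. The absence of a match therefore does not show that these genes lack such sites.

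Levels are given in TPM, transcript abundance corrected for gene length and scaled so that all hearts have the same sum. Each heart had 19680 to 21024 genes above 0, and the number of reads behind a value is unknown. Differences were fitted as log2(TPM + 1) with limma over the 13815 genes that reached a TPM of 1 in 3 or more hearts; tests were two-sided and p-values adjusted by Benjamini and Hochberg. A gene was counted as changed at an adjusted p under 0.05. Of the 10 factors, 9 passed the filter on low values. Fosl1 did not, and Fosb passed through the 3 CDDP hearts and 1 STING-/-+CDDP heart only, so that its entry already required high values there. Sting1 was at 5.62 to 22.1 TPM in the 6 wild-type hearts and at 2.87 to 5.96 in the 6 STING-/- hearts, each of which was below every Saline heart; CDDP heart 2, at 5.62, was below 1 STING-/- heart. Cardiomyocyte markers summed to between 25310 and 50840 TPM over the hearts. The tissue was a mixture of cells, and fewer cells of a type and less RNA per cell cannot be told apart.

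Marker lists for other cells differed between hearts. Neutrophil markers summed to 1120 TPM in CDDP heart 1 and to at most 90.8 in the other 11 hearts. Atrial markers varied widely within each group. They summed to 332, 39150 and 367 TPM in Saline hearts 1, 2 and 3, and to 3807, 873 and 14630 in the CDDP hearts. In the same order, they were at 3049, 12870 and 8990 TPM in STING-/- hearts and 9042, 922 and 345 in STING-/-+CDDP hearts. Macrophage markers summed to 408 to 519 TPM in Saline hearts and 117 to 238 in CDDP hearts, where 6 of 7 were lower by limma, against 10.4% of all tested genes. Their sum was 372 to 559 TPM in STING-/- hearts and 160 to 311 in STING-/-+CDDP hearts. The red cell list was at 4146 to 9317 TPM in Saline hearts and 42.0 to 1271 in CDDP hearts, and all 5 of its genes were lower. It was also below every Saline heart in STING-/- hearts without cisplatin (264 to 1465 TPM) and in STING-/-+CDDP hearts (81.9 to 311). For STING-/- against Saline, limma called 0 of the 5, and all 5 had an unadjusted p under 0.05, against 3.69% of all genes. Among 7 endothelial and 7 fibroblast markers, 4 of each were lower with CDDP. The endothelial sum was 621 to 727 TPM in Saline and 395 to 519.5 in CDDP hearts. It was also below every Saline heart in STING-/- (409 to 583 TPM) and STING-/-+CDDP hearts (412 to 607.5). The fibroblast sum overlapped, at 827 to 1992 TPM in Saline and 987 to 2100 in CDDP hearts. The fibroblast genes called were Col1a1, Col1a2, Col3a1 and Lum. With single hearts left out, the red cell count stayed at 5 and the fibroblast count was 3 or 4, whereas 3 macrophage and 0 endothelial markers were called without Saline heart 1. The endothelial count was also 1 without Saline heart 3 and 2 without CDDP heart 1 or 3. Without Saline heart 2, 4 macrophage markers were called, and 4 atrial markers in place of 0. Of 7 lymphocyte markers, 5 were under 1 TPM in all 12 hearts. The part of these differences in the results that follow was not tested. Single hearts whose removal changed a call of a factor are named beside that factor.

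With CDDP in wild-type mice, transcripts of Junb, Egr1, Nr4a1, Fos, Fosl2 and Fosb rose. Of the 9 factors tested, 6 were higher and none was lower, where 18.9% of all tested genes were called (2610 of 13815). The median difference of the 9 was 1.65 on the log2(TPM + 1) scale, and that of all tested genes was -0.003. Fosb, which entered through its CDDP hearts, is 1 of the 6; without it 5 of 8 were higher. A fit of the CDDP and Saline hearts alone called 3 (Fosb, Fosl2 and Junb). Jun, Jund and Atf3 did not pass. In mice without STING, none of the 9 passed the same comparison, in which 0.934% of all tested genes were called. Fosl2, Egr1 and Nr4a1 were lower in STING-/-+CDDP than in CDDP hearts, where 1.22% were called. The direct test of whether the change with cisplatin differed between genotypes was passed by none of the 9, and by 0.00724% of all tested genes.

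**Figure D1:**
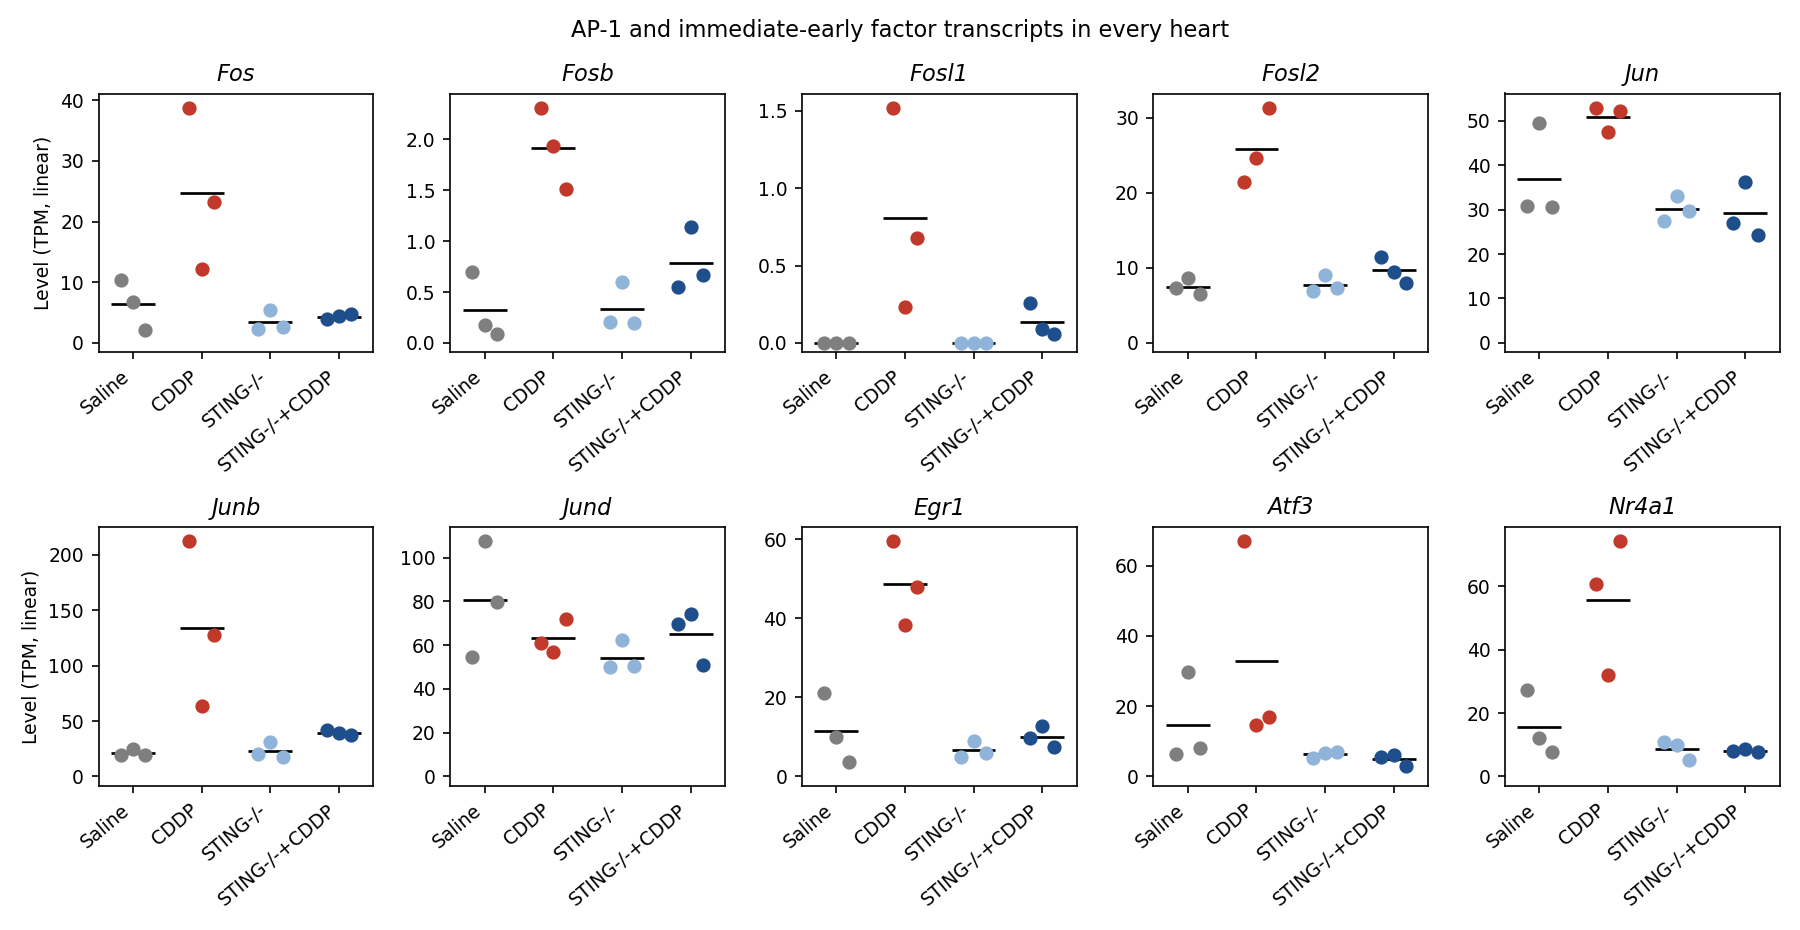
Level of each factor in TPM on a linear axis, which differs between panels, in the 4 groups; points are single hearts and lines are group means of 3. The CDDP hearts lay above the 9 others for Fos, Fosb, Fosl2, Junb, Egr1 and Nr4a1, while Jund overlapped between CDDP and each other group.

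Among the Fos proteins, Fos, the partner of Jun in the classical AP-1 dimer, was at 10.3, 6.73 and 2.16 TPM in Saline, 38.8, 12.1 and 23.3 in CDDP, 2.33, 5.51 and 2.69 in STING-/- and 3.88, 4.36 and 4.75 in STING-/-+CDDP hearts. The 3 CDDP hearts were the highest of the 12, and the other 3 groups overlapped one another. Fos rose with CDDP by 1.84 on the log2(TPM + 1) scale (SE 0.47, adjusted p = 0.0208). The call was lost without CDDP heart 1 (1.45, adjusted p = 0.0673), CDDP heart 3 (1.81, adjusted p = 0.0512) or Saline heart 3 (1.32, adjusted p = 0.0650). It was also lost, with the same difference, without a filter on low values (adjusted p = 0.0567) and in a fit of the CDDP and Saline hearts alone (adjusted p = 0.0895). Between STING-/-+CDDP and CDDP hearts Fos differed by -2.13 (95% interval -3.17 to -1.10, adjusted p = 0.0520). This difference passed the threshold without Saline heart 1, Saline heart 3 or CDDP heart 2. The study itself had listed Fos and Junb, and Atf4 below, from these hearts, so their values here are not independent evidence. It also measured Fos, Junb and Atf4 by RT-qPCR in 6 mice a group, and reported rises with CDDP that Sting knockout reversed. Its Western blots covered c-Fos and c-Jun protein and their phosphorylated forms, a measure other than transcripts. From them it reported active AP-1 in hearts with CDDP, and inactive AP-1 with CDDP where STING was lost.

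Fosb, a close relative that is also made as a shorter form lacking part of the activating region, was low in every group. TPM values were 0.70, 0.18 and 0.09 in Saline, 2.31, 1.93 and 1.51 in CDDP, 0.21, 0.60 and 0.20 in STING-/- and 0.55, 1.14 and 0.67 in STING-/-+CDDP hearts. The CDDP hearts stood above all others, and the other 3 groups overlapped. The rise with CDDP was 1.16 (SE 0.23, adjusted p = 0.00683), on a scale where the added 1 shrinks differences of genes this low. Between STING-/-+CDDP and CDDP hearts the difference was -0.71 (adjusted p = 0.132).

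Fosl1, which encodes Fra-1 and is itself a gene that AP-1 can induce, was listed at 0 in all 6 hearts without cisplatin and above 0 in all 6 hearts with it. Its TPM was 1.52, 0.23 and 0.68 in CDDP hearts and 0.26, 0.09 and 0.06 in STING-/-+CDDP hearts. The lowest CDDP heart was below the highest STING-/-+CDDP heart, so these groups overlapped. No ratio can be formed against the groups listed at 0. An exact permutation test of CDDP against Saline gave p = 0.1, the smallest that 3 hearts against 3 can give, and STING-/-+CDDP against CDDP gave p = 0.2. The gene shares 2767 bases with Ccdc85b on the opposite strand, at 5.89 to 16.2 TPM, and whether reads were assigned by strand is not given in the sources used here. Ccdc85b was lower with CDDP (-0.78, adjusted p = 0.0108), the direction opposite to that of Fosl1.

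Fosl2, which encodes Fra-2, had the lowest adjusted p of the 9 factors in both comparisons. TPM values were 7.35, 8.68 and 6.54 in Saline, 21.5, 24.7 and 31.4 in CDDP, 6.97, 9.01 and 7.32 in STING-/- and 11.4, 9.51 and 8.06 in STING-/-+CDDP hearts. The CDDP hearts were closely grouped and well above the other 9, which overlapped between groups. Fosl2 rose by 1.65 with CDDP (SE 0.18, adjusted p = 7.07e-04) and was lower in STING-/-+CDDP than in CDDP hearts (difference -1.33, SE 0.18, adjusted p = 0.0153). Without CDDP heart 1 these values were 1.77 and -1.45 (adjusted p = 0.00111 and 0.0240). The second call was lost without STING-/-+CDDP heart 2 (-1.32, adjusted p = 0.0741) or heart 3 (-1.22, adjusted p = 0.0720), and in a fit of these groups alone (adjusted p = 0.0611).

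**Figure D2:**
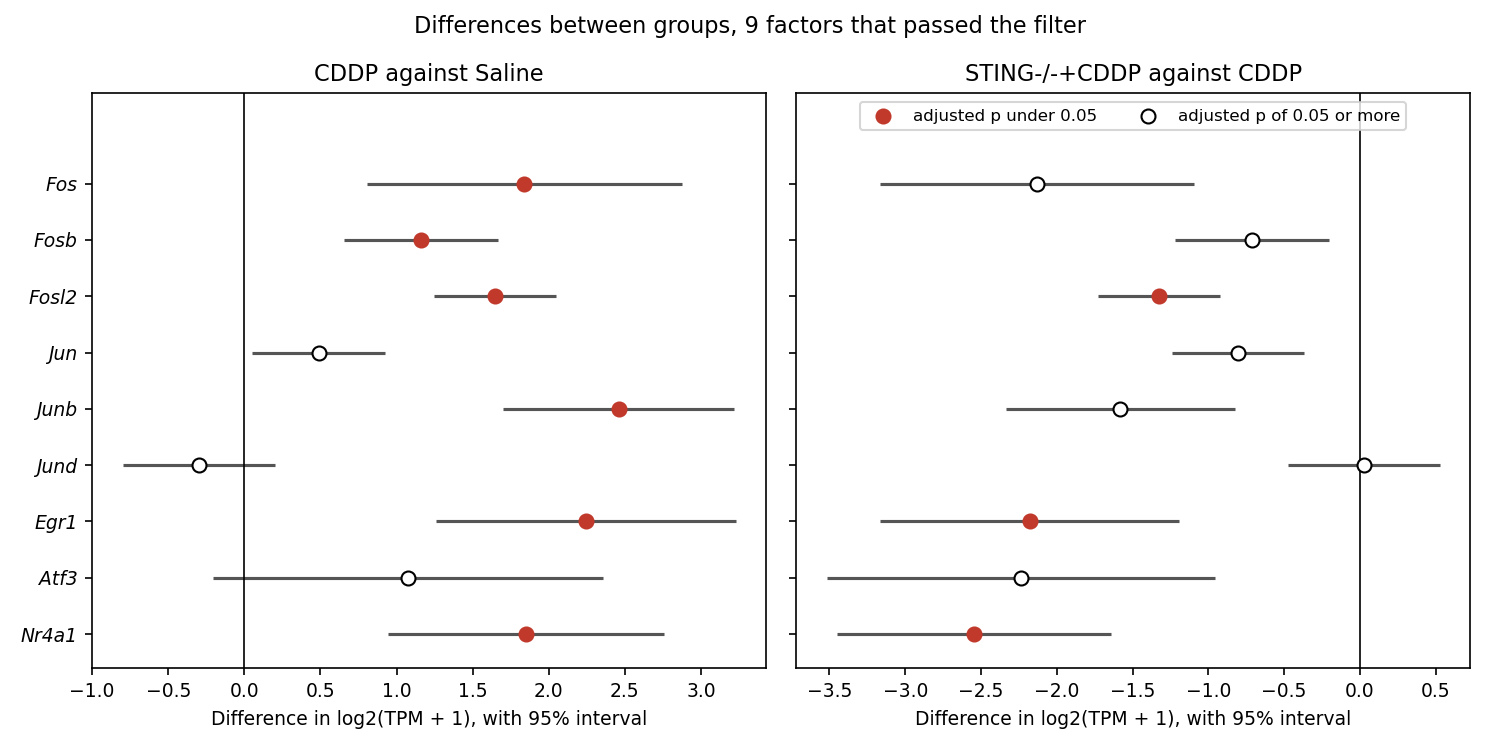
Difference in log2(TPM + 1) between CDDP and Saline (left) and between STING-/-+CDDP and CDDP (right) for the 9 factors tested, with the 95% interval; filled points had an adjusted p under 0.05. Points are filled for 6 factors on the left, from 1.16 for Fosb to 2.46 for Junb, and 3 on the right, from -1.33 for Fosl2 to -2.55 for Nr4a1.

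Among the Jun proteins, Junb, which activates weakly and can hold back Jun at some promoters, changed most. TPM values were 19.6, 24.6 and 19.1 in Saline, 212, 63.5 and 127 in CDDP, 20.2, 30.7 and 17.8 in STING-/- and 41.8, 39.7 and 37.0 in STING-/-+CDDP hearts. Saline and STING-/- hearts overlapped, the STING-/-+CDDP hearts were above both, and the CDDP hearts were above all others. The rise with CDDP was 2.46 (SE 0.35, adjusted p = 0.00135), a 6.37-fold ratio of mean TPM, and 2.05 without CDDP heart 1 (adjusted p = 0.00262). STING-/-+CDDP hearts differed from CDDP hearts by -1.58 (95% interval -2.34 to -0.82, adjusted p = 0.0520) and from STING-/- hearts by 0.80 (95% interval 0.040 to 1.55, adjusted p = 0.342). The difference from CDDP hearts passed the threshold without CDDP heart 2. Junb shares 351 bases with Prdx2 on the opposite strand. Prdx2 was at 191 to 288 TPM in all hearts, and its difference between CDDP and Saline was -0.038 (adjusted p = 0.847).

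Jun itself was at 30.7, 49.4 and 30.5 TPM in Saline, 52.9, 47.5 and 52.2 in CDDP, 27.5, 33.0 and 29.6 in STING-/- and 27.0, 36.2 and 24.2 in STING-/-+CDDP hearts. CDDP heart 2 was below Saline heart 2, in which atrial markers were high, and the STING-/- and STING-/-+CDDP hearts overlapped. The difference between CDDP and Saline was 0.49 (SE 0.20, adjusted p = 0.109), and 0.71 without Saline heart 2 (adjusted p = 0.0184). All STING-/-+CDDP hearts were below all CDDP hearts, and the difference was -0.80 (SE 0.20, adjusted p = 0.0722). Without Saline heart 2 it was also -0.80 and passed (adjusted p = 0.0375). Scaling the hearts by the median of ratios brought both differences past the threshold (0.50 and -0.69, adjusted p = 0.0371 and 0.0402).

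Jund had the highest level of the 3 Jun genes in the 9 hearts outside the CDDP group. It was at 54.7, 108 and 79.6 TPM in Saline, 61.1, 56.9 and 71.8 in CDDP, 50.0, 62.1 and 50.7 in STING-/- and 69.7, 74.4 and 50.9 in STING-/-+CDDP hearts. The CDDP hearts overlapped with each of the other groups. The difference was -0.30 between CDDP and Saline (95% interval -0.80 to 0.20, adjusted p = 0.393) and 0.027 between STING-/-+CDDP and CDDP (95% interval -0.47 to 0.53, adjusted p = 0.964).

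Because TPM is per length, the 7 subunits can be set beside each other within a heart. Their sum was 123.4 to 197 TPM in Saline hearts, 207 to 391 in CDDP hearts, 107 to 141 in STING-/- hearts and 126 to 165 in STING-/-+CDDP hearts. Junb made up 12.5% to 15.9% of the sum in Saline hearts, 30.7% to 54.4% with CDDP, 16.4% to 21.8% in STING-/- hearts and 24.0% to 29.5% in STING-/-+CDDP hearts. The share of Jund was 44.3% to 57.6% in Saline and 15.6% to 27.5% in CDDP hearts, and 44.1% to 46.8% and 40.5% to 45.1% in the 2 STING-/- groups. The 4 Fos genes together were 6.37% to 14.9% of the sum in Saline hearts, 16.4% to 18.8% in CDDP hearts, 8.87% to 10.7% in STING-/- hearts and 9.13% to 10.8% in STING-/-+CDDP hearts. Thus the pool of transcripts was mostly Jun family in each heart, and its leading member was Jund in all 9 hearts outside the CDDP group and Junb in the 3 CDDP hearts. These shares are transcripts, not proteins or dimers, and were not tested.

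**Figure D3:**
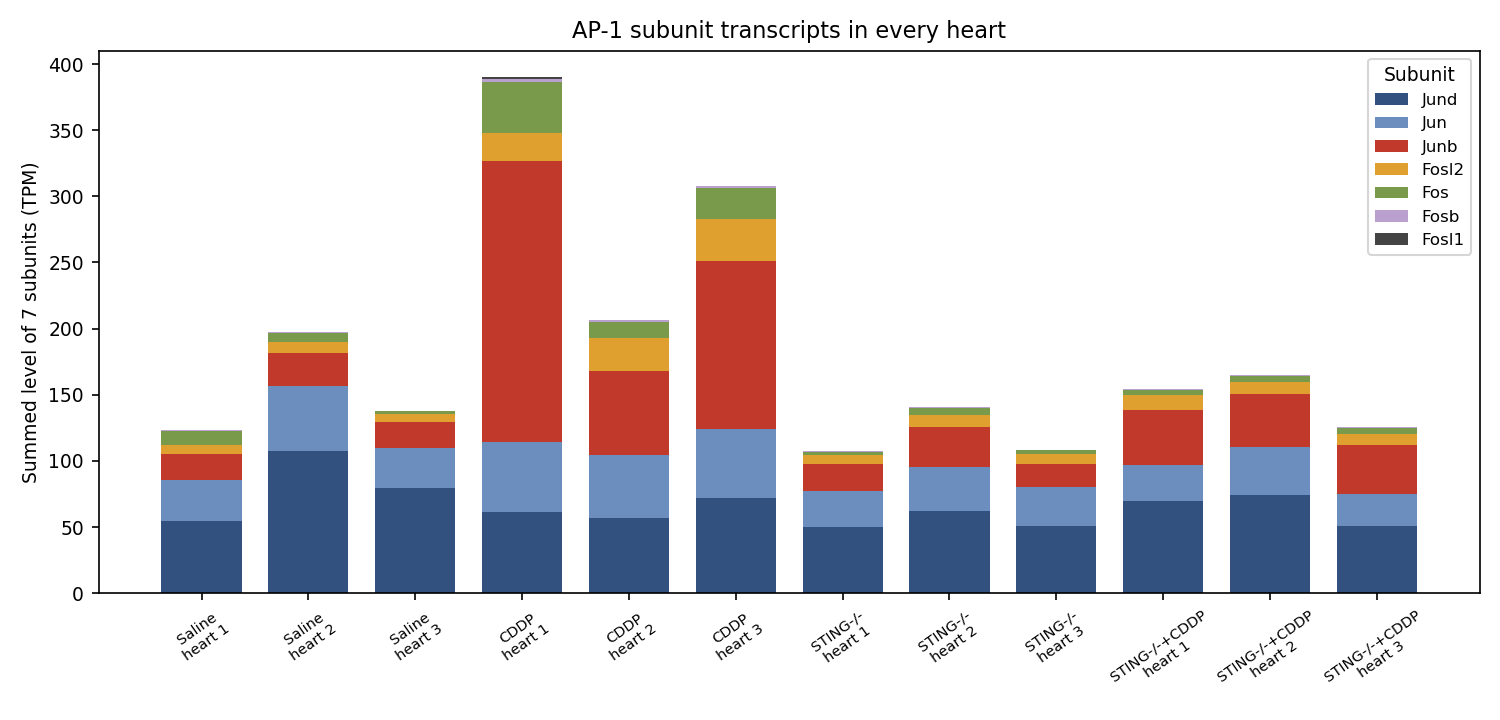
Stacked TPM of the 7 AP-1 subunit genes in each of the 12 hearts, on a linear axis from 0. The 3 CDDP hearts have the tallest bars, 207 to 391 TPM, with Junb as the tallest segment, whereas Jund is the tallest in the other 9.

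Of the factors outside the Fos and Jun families, Egr1, a zinc finger factor induced through serum response factor, was at 21.0, 9.91 and 3.56 TPM in Saline, 59.5, 38.3 and 48.0 in CDDP, 5.04, 9.09 and 6.03 in STING-/- and 9.72, 12.7 and 7.57 in STING-/-+CDDP hearts. The CDDP hearts were above all others and the remaining groups overlapped. Egr1 rose by 2.24 with CDDP (SE 0.45, adjusted p = 0.00704). It was lower in STING-/-+CDDP than in CDDP hearts (difference -2.18, SE 0.45, adjusted p = 0.0452). This call was lost in 11 of 19 alternative settings, with differences of -2.01 to -2.35. Among these were the leaving out of CDDP heart 1 (-2.02, adjusted p = 0.0914), of CDDP heart 3 and of each of the 6 STING-/- hearts, with or without CDDP, as well as the pseudocount of 0.1 and the replicate block.

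Nr4a1, an orphan nuclear receptor induced through CREB and MEF2, was at 27.3, 12.2 and 7.71 TPM in Saline, 60.9, 31.9 and 74.2 in CDDP, 10.8, 9.86 and 5.31 in STING-/- and 8.03, 8.78 and 7.68 in STING-/-+CDDP hearts. CDDP hearts lay above the rest, and the 2 STING-/- groups overlapped. The rise with CDDP was 1.85 (SE 0.41, adjusted p = 0.0113). STING-/-+CDDP hearts were lower than CDDP hearts, with the difference farthest from 0 of the 9 factors (-2.55, SE 0.41, adjusted p = 0.0216). This call was lost without CDDP heart 1 (-2.44, adjusted p = 0.0576), CDDP heart 3 (-2.30, adjusted p = 0.0666) or any of the 3 STING-/-+CDDP hearts (-2.51 to -2.59), and without a filter on low values.

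Atf3, a repressor of the ATF family that pairs with Jun proteins and follows stress signals, had the largest standard error of the 9. It was at 6.38, 29.7 and 7.98 TPM in Saline, 66.9, 14.6 and 16.9 in CDDP, 5.30, 6.54 and 6.91 in STING-/- and 5.53, 6.05 and 2.93 in STING-/-+CDDP hearts. Saline heart 2 was above 2 of the CDDP hearts, and CDDP heart 1 was far above the other 2 of its group. The differences were 1.07 for CDDP against Saline (SE 0.59, adjusted p = 0.222) and -2.24 for STING-/-+CDDP against CDDP (SE 0.59, adjusted p = 0.0820), with no overlap in the second. Leaving out Saline heart 2 gave 1.71 and -2.24 (adjusted p = 0.0416 and 0.0427), and leaving out CDDP heart 1 gave 0.40 and -1.56 (adjusted p = 0.630 and 0.146).

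The order of hearts within a group was shared by several of the factors. Within the CDDP group, heart 1 was highest for 7 of the 10 (Fos, Fosb, Fosl1, Jun, Junb, Egr1 and Atf3) and heart 2 was lowest for 8. CDDP heart 1 was also the heart with 1120 TPM of neutrophil markers, of which S100a8, a calcium-binding protein of neutrophils, was at 316 TPM against 14.4 and 7.93 in CDDP hearts 2 and 3. Without CDDP heart 1, 5 of the 9 factors were higher with CDDP, all but Fos of the 6, and 1 was lower in STING-/-+CDDP than in CDDP hearts (Fosl2). Without Saline heart 2 these counts were 8 and 5. For STING-/-+CDDP against CDDP, leaving out CDDP heart 1 also lowered the calls among all tested genes, from 168 to 57. For CDDP against Saline, calls among all genes were 2610 with every heart kept and 1241 to 2559 with single hearts left out.

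Between STING-/-+CDDP and CDDP hearts, 3 of the 9 factors were lower and none higher, where 1.22% of all tested genes were called (168 of 13815). Values were below 0 for 8 of the 9, with a median of -1.58 against -0.095 for all tested genes. For Fos and Junb the adjusted p was 0.0520, just above the threshold. The count depended on the hearts kept and on the scaling: it was 0 without STING-/-+CDDP heart 2 or heart 3, 1 (Fosl2) without STING-/-+CDDP heart 1, CDDP heart 1 or CDDP heart 3, 5 without CDDP heart 2 and 6 with the median of ratios or quantile normalization, which added Fos, Jun and Junb. Calls among all genes moved in the same direction. They were 11 and 12 without STING-/-+CDDP heart 2 and heart 3, and 36, 57 and 41 in the settings with Fosl2 alone. Without CDDP heart 2 they were 380, and with the median of ratios and quantile normalization 655 and 671. For 8 of the 9, no STING-/-+CDDP heart reached the range of the CDDP hearts, where 22.7% of all tested genes were without overlap. For CDDP against Saline, 6 of the 9 were without overlap, against 32%. Fosb, which entered through its CDDP hearts, is in both counts and among the 8 below 0. Both comparisons share the CDDP hearts, so that a deviation of these 3 hearts enters each with opposite sign.

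Within the hearts without cisplatin, the loss of STING was not accompanied by a difference that passed. By limma 0 of the 9 were called for STING-/- against Saline, where 0.0724% of all genes were called, and 1 (Jund, -0.52, 95% interval -1.02 to -0.015) had an unadjusted p under 0.05, against 3.69% of all genes. The 2 groups overlapped for all 9, against 7.64% of all tested genes without overlap. The intervals were wide for some, such as -1.63 to 0.44 for Fos and -2.09 to 0.47 for Atf3, and narrower for Fosl2 (-0.36 to 0.44).

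In the STING-/- mice, no factor passed with cisplatin. Comparing STING-/-+CDDP with STING-/- hearts, limma called 0 of the 9, where 0.934% of all genes were called, and Junb alone had an unadjusted p under 0.05, against 13.5% of all genes. The values ran from -0.35 for Atf3 to 0.80 for Junb, with 0.30 for Fos (95% interval -0.73 to 1.34), 0.28 for Fosl2 (-0.13 to 0.68), 0.52 for Egr1 (-0.47 to 1.5) and -0.025 for Nr4a1 (-0.93 to 0.88). Only Junb of the 9, and Fosl1 beside them, did not overlap between the groups, against 24.2% of all tested genes. The sign for Jun and Nr4a1 turned with the scaling, which moved the median of all genes in this comparison from -0.107 to 0.007 (median of ratios) or 0.015 (quantile normalization).

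The difference in the change with cisplatin between genotypes was fitted in the same model. It was below 0 for 8 of the 9, the change in wild-type mice being the greater, with a median of -1.43 against -0.10 for all genes. By limma 0 of the 9 passed, where 0.00724% of all genes did (1 of 13815). Of the 9, 6 had an unadjusted p under 0.05 (Fos, Fosb, Fosl2, Junb, Egr1 and Nr4a1), against 11.7% of all genes. Fosb, which entered through its CDDP hearts, is 1 of the 6 and also of the 8 below 0. The adjusted p ran from 0.267 to 0.532. For Fosl2 the value was -1.37 (95% interval -1.94 to -0.80, adjusted p = 0.267), which passed after scaling by the median of ratios (-1.25, adjusted p = 0.00900) and after quantile normalization. For Nr4a1 it was -1.88 (-3.15 to -0.60), for Egr1 -1.73 (-3.12 to -0.33), for Junb -1.66 (-2.73 to -0.59) and for Fos -1.53 (-3.00 to -0.070). Jund had the single value above 0, at 0.54 (-0.17 to 1.25).

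**Figure D4:**
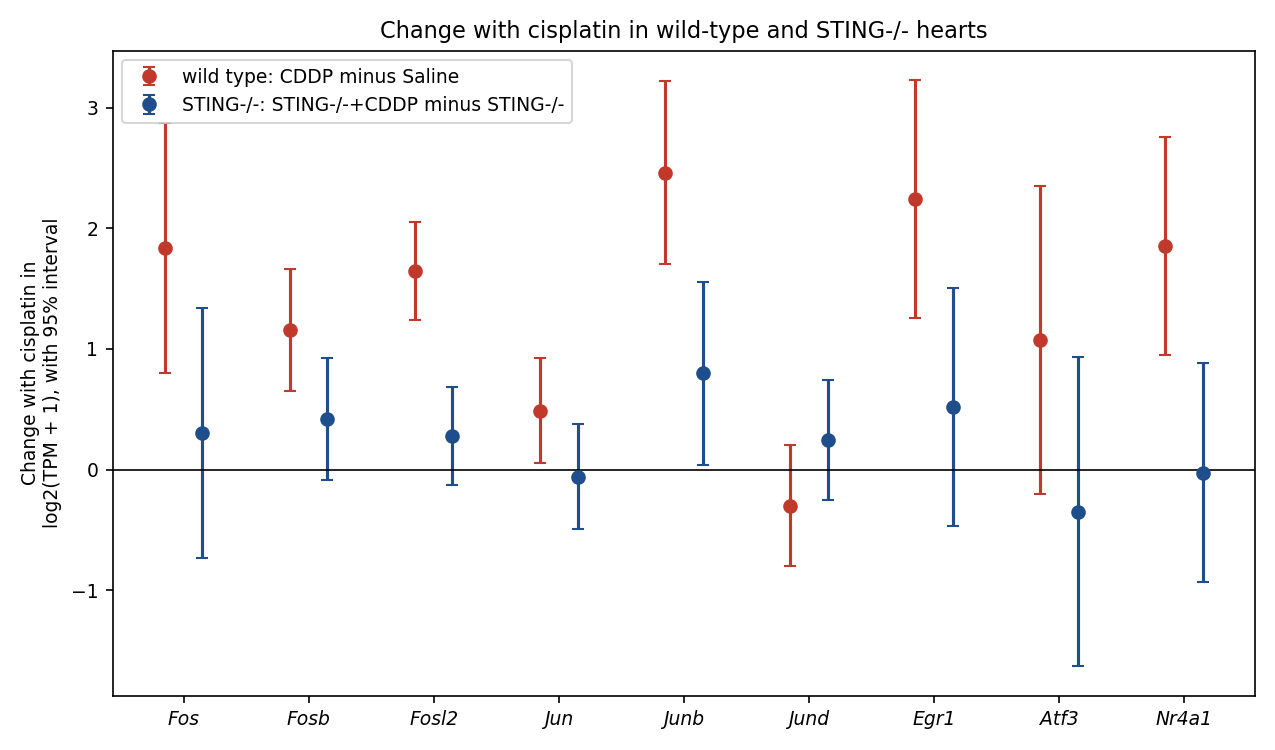
Change with cisplatin in log2(TPM + 1), with 95% intervals, in wild-type (CDDP minus Saline) and STING-/- mice (STING-/-+CDDP minus STING-/-) for the 9 factors tested. The wild-type value is above the STING-/- value for 8 of the 9, among them Fosb, which entered through its CDDP hearts. The intervals of the 2 genotypes do not overlap for Fosl2, Junb and Nr4a1, and no difference passed the adjusted test.

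Among 58 other immediate-early genes and their feedback regulators, 53 were tested. With CDDP, 18 were higher and 1 was lower (Dusp8), or 35.8% against 18.9% of all tested genes, with a median of 0.66. Socs3, which limits JAK-STAT signalling, was at 3.15, 4.24 and 3.74 TPM in Saline hearts and 70.8, 10.6 and 24.3 in CDDP hearts (2.56, SE 0.52, adjusted p = 0.00736). Other rises were those of Gadd45g, a stress-response gene (1.95, adjusted p = 0.0296), and Cebpd, a bZIP factor of the acute-phase response (1.72, adjusted p = 0.0168). In both, CDDP heart 2 was close to Saline heart 2, at 23.7 against 23.4 TPM and 25.1 against 24.6 TPM. Gadd45g was at 182 and 66.2 TPM in CDDP hearts 1 and 3, and Cebpd at 51.9 and 59.6. Zfp36, which speeds decay of cytokine mRNAs, also rose (1.59, adjusted p = 0.00570). So did Myc, a growth-promoting factor (1.18, adjusted p = 0.00497), and Nr4a3, a relative of Nr4a1 (1.41, adjusted p = 0.0154). Genes of the same class without a call included Dusp1, Ier2, Klf4 and Klf6. The count of 19 was 17 without CDDP heart 1 and 20 without Saline heart 2, and fell to 12 without Saline heart 1 and 11 without Saline heart 3.

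Between STING-/-+CDDP and CDDP hearts, 4 of these 53 were lower and none higher (7.55% against 1.22% of all tested genes), and 46 of the 53 were below 0, with a median of -0.56. Sik1, a kinase that restrains CREB coactivators, was at 23.9, 31.0 and 30.2 TPM in CDDP hearts and 10.3, 9.68 and 8.27 in STING-/-+CDDP hearts (-1.49, SE 0.24, adjusted p = 0.0216). Btg2, an antiproliferative gene, was at 110.3, 60.4 and 66.3 TPM against 30.7, 29.9 and 20.7 (-1.48, SE 0.24, adjusted p = 0.0216). Apold1, an early gene of endothelium, was also lower (-1.46, adjusted p = 0.0334), as was Pim1, a survival kinase (-1.35, adjusted p = 0.0216). All 4 were also among the 18 that rose with CDDP, a comparison that shares the CDDP hearts. Without any 1 of the 3 STING-/-+CDDP hearts 0 of the 53 were called by limma. The count was 1 without CDDP heart 3, 3 without CDDP heart 1, 7 without CDDP heart 2, 9 with the median of ratios and 8 with quantile normalization. Calls among all genes in these settings, given above beside the factors, moved in the same direction. In STING-/-+CDDP against STING-/- hearts limma called 0 of the 53 and 2 had an unadjusted p under 0.05, against 13.5% of all genes.

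**Figure D5:**
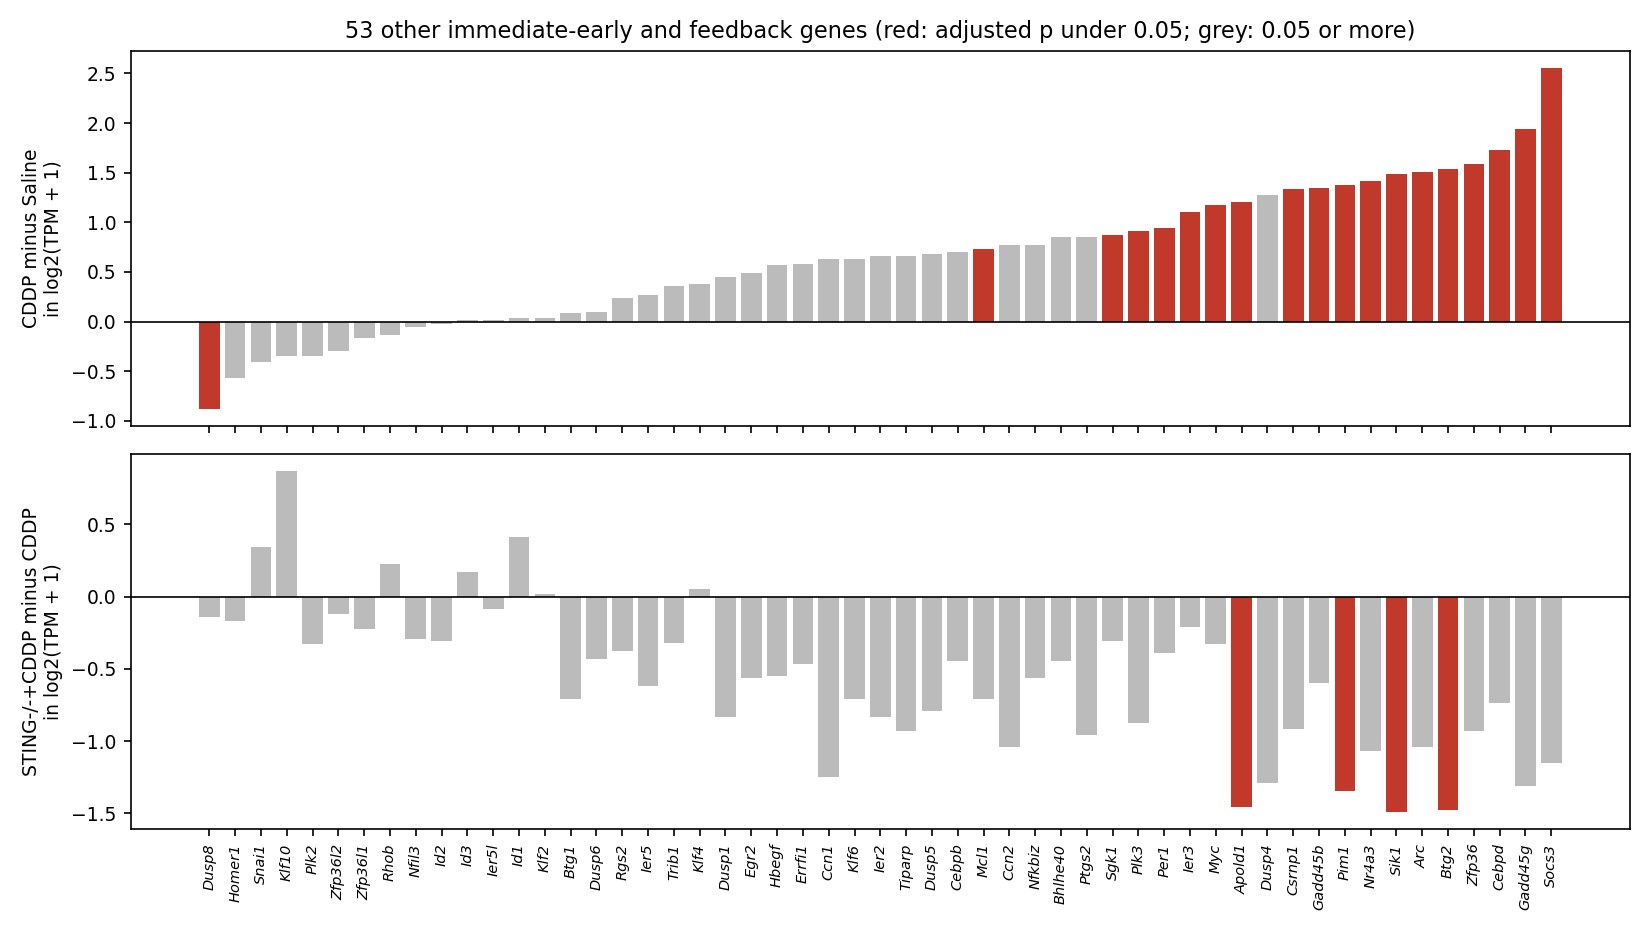
Difference in log2(TPM + 1) for the 53 other immediate-early and feedback genes tested, in CDDP against Saline (top) and STING-/-+CDDP against CDDP (bottom), in the same gene order; red bars had an adjusted p under 0.05. The top has 18 red bars above 0 and 1 below, and the bottom has 4, all below 0.

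Other bZIP proteins that can pair with Fos or Jun were called with CDDP in 5 of 16 tested, or 31.2% against 18.9% of all tested genes. The count was 3 without CDDP heart 1 or Saline heart 1, and 9 with the median of ratios or quantile normalization. Maff and Mafk, small Maf proteins without an activating region, rose with CDDP by 2.03 (SE 0.30, adjusted p = 0.00183) and 1.13 (SE 0.19, adjusted p = 0.00293). Maff was at 5.61, 13.9 and 10.7 TPM in Saline hearts and 41.7, 37.9 and 45.8 in CDDP hearts, with no overlap. Atf4, the factor of the integrated stress response, rose by 1.07 (adjusted p = 0.0117) and was lower in STING-/-+CDDP than in CDDP hearts (-1.15, adjusted p = 0.0462), the only call of this list there. That call was lost with a pseudocount of 0.1 and without CDDP heart 1, CDDP heart 3, Saline heart 3 or any of the 6 STING-/- hearts, with or without CDDP. Batf2 was lower with CDDP (-1.12, adjusted p = 0.0338).

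Of 35 kinases and promoter-bound factors that act before immediate-early genes, 3 were higher with CDDP (Map3k8, Map2k3 and Creb1) and 6 lower (Map2k6, Elk1, Elk3, Srf, Map2k2 and Mrtfa), in all 25.7% against 18.9% of tested genes, with 6 called without CDDP heart 1 and 4 without Saline heart 1. Map2k6, a kinase that activates p38, had the lowest adjusted p of these (-1.49, SE 0.24, adjusted p = 0.00253). Map3k8, which activates the ERK route after TNF and Toll-like receptors, was at 1.95, 2.46 and 2.05 TPM in Saline hearts and 6.40, 3.43 and 8.99 in CDDP hearts (1.13, adjusted p = 0.0125). Elk1, a partner of serum response factor, was at 5.21, 5.01 and 4.22 TPM against 2.06, 1.93 and 2.06 (-0.94, adjusted p = 0.00363). Crem, a CREB family member, was the 1 gene of this list that was lower in STING-/-+CDDP than in CDDP hearts (-0.79, adjusted p = 0.0341), at 8.58, 8.32 and 8.17 TPM against 14.9, 14.6 and 16.0. That call was lost without CDDP heart 1, CDDP heart 3, STING-/- heart 1 or any of the 3 STING-/-+CDDP hearts. These transcripts say nothing of the phosphorylation by which most of these proteins act.

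Of 25 genes named in textbooks as AP-1 targets, 17 were tested. Mt2, Plaur, Timp1 and Hmox1 were higher with CDDP and Vegfa was lower, so that 29.4% were called against 18.9% of all tested genes. The count was 8 without Saline heart 2 and with the median of ratios, and 3 without Saline heart 1, Saline heart 3, STING-/- heart 1 or STING-/-+CDDP heart 2. Plaur, the urokinase receptor, was at 2.74, 3.07 and 3.71 TPM in Saline hearts, 47.5, 9.58 and 14.7 in CDDP hearts and 4.50, 5.55 and 2.54 in STING-/-+CDDP hearts. Its rise with CDDP was 2.27 (SE 0.52, adjusted p = 0.0126), and its difference between STING-/-+CDDP and CDDP hearts was -1.99 (adjusted p = 0.0816). Mt2, a metallothionein that also responds to metals and glucocorticoids, rose by 3.89 (SE 0.81, adjusted p = 0.00803). Hmox1, the enzyme that breaks down heme, rose by 1.78 (SE 0.37, adjusted p = 0.00849). In STING-/-+CDDP against CDDP, limma called 0 of the 17 and 3 had an unadjusted p under 0.05, against 19.8% of all genes. Many of these genes answer to other factors too, so the list does not measure AP-1.

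Heat shock genes, which like immediate-early genes can be induced while tissue is removed, were called in 4 of 11, all higher with CDDP: Hspa1b, Hspa1a, Bag3 and Hspa8. That is 36.4% against 18.9% of all tested genes, but limma called 0 without Saline heart 1, Saline heart 3 or CDDP heart 3. The count was 1 without CDDP heart 1, and 2 without STING-/- heart 2 or STING-/-+CDDP heart 1. Hspa1a, an inducible chaperone, was at 2.18, 27.9 and 3.76 TPM in Saline, 50.1, 24.8 and 62.1 in CDDP, 7.39, 16.5 and 32.7 in STING-/- and 20.4, 31.5 and 7.60 in STING-/-+CDDP hearts. Saline heart 2 was again high, above CDDP heart 2. The rise of Hspa1a was 2.52 (SE 0.79, adjusted p = 0.0451), its difference between STING-/-+CDDP and CDDP hearts was -1.26 (adjusted p = 0.402), and limma called 0 of the 11 in that comparison, with 2 at an unadjusted p under 0.05, against 19.8% of all genes. The part of handling in the levels of the 10 factors was not tested.

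Across the 12 hearts, log2(TPM + 1) of Fos, Egr1 and Nr4a1 moved together, with a Pearson r of 0.96 between Fos and Egr1, 0.94 between Fos and Nr4a1 and 0.93 between Egr1 and Nr4a1, whereas r between Fos and Jund was 0.048. Among the genes outside the 10 with the highest r were Srsf3 (0.95), Dusp5 (0.94) and Pim1 (0.94) for Fos, Cpsf6 and Cblb (0.98 each) for Fosl2, Serpina3m, Lyar and Trim68 (0.96 to 0.97) for Junb, Psmb4, Srsf3 and Wdr74 (0.96 to 0.97) for Egr1, and Zfp280c, Nol8 and Crem (0.94 to 0.97) for Nr4a1. These values describe 12 points that share their groups and scaling, and the separation of the CDDP hearts from the rest is part of each.

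Positions in GENCODE M21 (GRCm38) place the genes apart from one another, except that Jund (70698949 to 70700616) and Junb (84974484 to 84978718) share chromosome 8. Jun, Jund and Atf3 also overlap antisense or small RNA genes, which were low: Junos was at 0 to 0.98 TPM, Gm11175 within Jund at 0 to 8.04, and Gm24748 within Atf3 was listed at 0 in all hearts. Without the strand of the reads, a gene and its antisense partner cannot be told apart.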

How the data were processed

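RNA-seq of cardiac tissues of 12 mice was analysed, with groups of 3 named by genotype and treatment as the labels give them. The authors deposited a table of TPM for every gene in every heart, with 2 decimals, whose columns summed to between 999999 and 1000001. The submitters' processing notes name fastp, HISAT, RSEM and GRCm38.p5; versions and the strand setting are not given in the sources used here. The depth of each heart is unknown, so neither counting intervals nor count models apply. The columns of group means were left out.

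One linear model with 4 group means was fitted to log2(TPM + 1) of all 12 hearts using limma 3.58.1 and R 4.3.3 (trend, 8 residual degrees of freedom), for genes that reached a TPM of 1 in 3 or more hearts. Tests were two-sided, p-values were adjusted by the Benjamini-Hochberg method over 13815 genes, and the threshold was 0.05, the cutoff in the study's methods. Fosl1 was compared by exact permutation tests. The procedure was tested on simulated data. Positions came from GENCODE M21 (GRCm38) and promoters from RefSeq (GRCm38.p6). Plots were made in Python 3.11.15 with matplotlib 3.10.9.

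The 10 factors, the gene lists and the tests were chosen with earlier results of these data known. All 10 factors are named. Of each other list, up to 4 called genes with the largest difference were chosen in CDDP against Saline and in STING-/-+CDDP against CDDP, or the one with the largest difference where none was called; of the cell marker lists, values are given for the sums and for S100a8. The remaining genes named in the lists, such as Myc, Nr4a3 and Dusp1, were chosen after their values were seen. Some genes are not reported here. Other settings tried were no filter, a stricter filter (TPM of 5), a pseudocount of 0.1, a fit to the compared groups alone, scaling by the median of ratios, quantile normalization, a block for the replicate number, and leaving out each heart in turn.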

Additional observations from a re-analysis of the deposited data

How the results depend on the processing

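TPM keeps no read number, so low values such as those of Fosb and Fosl1 have no known precision, and 3 hearts a group limit each difference. For the 45 differences of the 9 factors under the alternatives, 775 values kept their direction and side of the threshold, 27 lost the call, 19 gained it, and 20 turned sign; causes were not tested. Fitting only the groups compared called 3 factors (Fosb, Fosl2 and Junb) and 822 genes for CDDP against Saline, and 38 genes for STING-/-+CDDP against CDDP and 204 for STING-/-+CDDP against STING-/-. Without a filter, STING-/-+CDDP against CDDP called 1 factor and 12 genes, STING-/- against Saline 4 genes and STING-/-+CDDP against STING-/- 46; at a TPM of at least 5 the first of these called 5 factors. The median of ratios called 6 factors and 655 genes for STING-/-+CDDP against CDDP, 250 genes for STING-/-+CDDP against STING-/-, and 1 factor (Fosl2) and 3 genes for the difference between genotypes; quantile normalization called 6 factors and 671 genes, 297 genes, and 1 factor and 3 genes. Of called genes, 29.8% were higher in STING-/-+CDDP than in CDDP hearts, 42.1% with the median of ratios and 46.8% with quantile normalization; for STING-/-+CDDP against STING-/- these were 27.1%, 50.8% and 55.9%.

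Leaving out each heart in turn gave 5 to 8 factors and 1241 to 2559 genes for CDDP against Saline, 0 to 5 factors and 11 to 380 genes for STING-/-+CDDP against CDDP, 3 to 14 genes for STING-/- against Saline, 18 to 204 for STING-/-+CDDP against STING-/- and 0 to 12 for the difference between genotypes. With a heart left out, Jund ran from -0.079 to 0.19 between STING-/-+CDDP and CDDP; between STING-/- and Saline, Fosb ran from -0.11 to 0.22, Fosl2 from -0.058 to 0.14, Junb from -0.14 to 0.24 and Egr1 from -1.04 to 0.096; between STING-/-+CDDP and STING-/-, Jun ran from -0.22 to 0.058 and Nr4a1 from -0.31 to 0.14. Quantile normalization gave -0.042 for Fosb between STING-/- and Saline. Between STING-/-+CDDP and STING-/-, Jun was 0.074 with the median of ratios and 0.036 with quantile normalization, and Nr4a1 0.10 and 0.11.

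With the replicate number as a block, 6 factors were called for CDDP against Saline, 2 factors (Fosl2 and Nr4a1) and 67 genes for STING-/-+CDDP against CDDP, and 5 genes for STING-/- against Saline; of the 45 differences, 1 call changed (Egr1). Hearts with the same number come from different mice. The correlation of their deviations from the group means ran from -0.33 to 0.26 over 18 pairs, 4 of them over 0.1. Of 12 hearts, 1 correlated best with its own number. These correlations cannot show whether hearts with the same number were handled together, which was not tested.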
